A study of Homo sapiens with 9 samples.

Results

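Mitotic kinesins are motor proteins that walk along or shorten microtubules while a cell divides. The 10 genes KIF20A, KIF11, KIF2C, KIF23, KIF4A, KIF14, KIF15, KIF18A, KIFC1 and KIF22 were taken by name from the 18354 genes with a named probe, and each was represented by its brightest probe. All 10 had a probe and all 10 passed the filter on dim probes. HeyA8 cells, an established human ovarian cancer line that the labels also spell Hey8A, were profiled on Illumina bead arrays, 3 arrays in each of 3 groups. Cells in monoculture were kept for 24 h in complete medium (called complete medium here) or in medium without glutamine (called deprived monoculture). The remaining group, called coculture, was also kept for 24 h without glutamine. It shared its wells with cancer-associated fibroblasts on inserts, which were added on day 1. In all 3 groups the cells were seeded on day 0 and the medium was changed on day 4. No coculture in complete medium was analysed here. HeyA8 is a single line, and whether the arrays of a group came from separate experiments is not stated in the labels, so p-values measure only the spread between these arrays, which may be technical.

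Kinesins hold a motor domain that turns the energy of ATP into movement along a microtubule. In dividing cells some of them build the spindle by sliding its microtubules, others move or position chromosomes, and others act at the central spindle, where the cell is cut apart. Most mitotic kinesin genes are transcribed mainly late in the cell cycle. Promoters of this class of genes often hold a CHR element, which is bound by the LIN54 subunit of the DREAM and MYB-MuvB complexes, and CCAAT boxes, which are bound by NF-Y.

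The promoter sequences are shown because the members moved together in the comparisons that follow. Windows from RefSeq (build GRCh38.p14), 250 bases before to 50 after the annotated start, were searched for the CHR letters TTTGAA and the CCAAT box letters CCAAT on both strands, and no match in a member shared a base with another. All 10 genes had a window, and KIF22 had 2. The CHR letters stood in 7 of the 10 genes, against 18.2% of all 27305 genes with a window and 14% of the tested genes among them. CCAAT letters stood in 8 of the 10 genes, against 39.7% of all genes and 43.6% of the tested genes. Both motifs stood together in 6 of 10, against 7.26% of all genes and 5.79% of the tested genes. Of 23 other kinesin and light chain genes with a window, 1 held the CHR letters. These matches are a description of letters, not of bound sites. No other spelling of the CHR element was searched, so a gene without TTTGAA is not shown to lack the element. Below are the 120 bases from position -100 to position 20 counted from the start, 5′ to 3′ along each gene, with the letters of both motifs in capitals (TTCAAA and ATTGG are the same motifs on the opposite strand). The following 6 genes held both motifs.
KIF11: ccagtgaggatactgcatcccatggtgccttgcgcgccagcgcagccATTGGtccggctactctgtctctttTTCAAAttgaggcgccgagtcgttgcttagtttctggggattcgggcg
KIF23: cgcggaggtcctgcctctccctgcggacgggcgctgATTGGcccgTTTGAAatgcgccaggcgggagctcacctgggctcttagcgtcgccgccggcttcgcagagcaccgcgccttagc
KIF4A: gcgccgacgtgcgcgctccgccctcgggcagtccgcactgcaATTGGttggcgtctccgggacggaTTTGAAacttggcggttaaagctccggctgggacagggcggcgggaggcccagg
KIF14: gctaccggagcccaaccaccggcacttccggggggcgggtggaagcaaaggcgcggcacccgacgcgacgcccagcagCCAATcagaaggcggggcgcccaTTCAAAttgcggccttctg
KIF18A: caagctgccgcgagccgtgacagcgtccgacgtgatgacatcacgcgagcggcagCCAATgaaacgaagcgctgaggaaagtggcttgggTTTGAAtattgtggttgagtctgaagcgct
KIFC1: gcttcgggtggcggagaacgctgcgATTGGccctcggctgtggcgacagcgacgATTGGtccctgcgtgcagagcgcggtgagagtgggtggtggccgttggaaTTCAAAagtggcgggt
KIF20A and the upstream window of KIF22 held CCAAT letters without TTTGAA, and are shown as well.
KIF20A: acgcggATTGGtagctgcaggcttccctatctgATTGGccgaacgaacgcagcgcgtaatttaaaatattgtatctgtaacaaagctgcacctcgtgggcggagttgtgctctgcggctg
KIF22: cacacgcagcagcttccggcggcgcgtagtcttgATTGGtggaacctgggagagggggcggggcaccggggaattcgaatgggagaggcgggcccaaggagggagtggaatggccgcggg

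The stretches lie at chr10:92593030-92593149 (plus strand) for KIF11, chr15:69414249-69414368 (plus strand) for KIF23, chrX:70290004-70290123 (plus strand) for KIF4A and chr1:200620732-200620851 (minus strand) for KIF14. Those of the others are at chr11:28108137-28108256 (minus strand) for KIF18A, chr6:33391723-33391842 (plus strand) for KIFC1, chr5:138179012-138179131 (plus strand) for KIF20A and chr16:29790651-29790770 (plus strand) for KIF22. In KIF23 the letters of the CCAAT box ended at position -60 and those of the CHR element began at -55. In KIF14 and KIFC1 the CHR letters lay just past the annotated start, beginning at positions 2 and 5. KIF15 held the CHR letters without CCAAT. KIF2C, and the downstream window of KIF22, held neither set of letters. E2F-like letters were searched on both strands as TTCGCGC. The further spelling TTGGCGC was searched with it. A last spelling, TTCCCGC, completed the set. At least 1 of these spellings stood in 2 of the 10 genes, KIF15 and KIF18A, against 13.1% of all genes, 21.2% of the tested genes and 26.1% of other kinesin and light chain genes, so that their share was no higher than among tested genes.

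**Figure D1:**
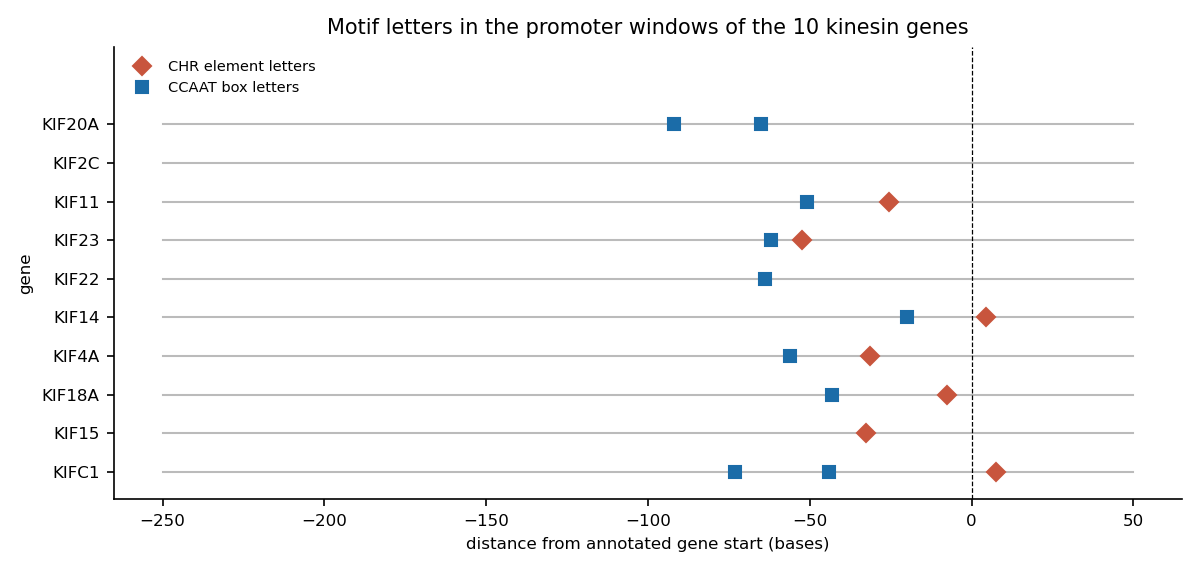
Position of CHR element letters (diamonds) and CCAAT box letters (squares) in bases from the annotated start (dashed line) for the 10 kinesin genes; KIF22 is shown with its upstream window. Of the 10 genes, 7 held a diamond and 8 at least 1 square, and no square lay downstream of the start.

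Levels are on the deposited log2 scale, and folds assume that this scale is plain log2. Low values piled up at a floor, whose upper edge was set at 7.48. A group with all its arrays at or below this edge gives only a bound, written as "at least". Where only some arrays of a group lay on the floor, their number is given and the fold is that of the measured means unless a bound is written. Differences carry the standard error (SE) of the fit. The arrays had nearly equal medians, from 7.4706 to 7.4731, but these lie below the floor edge. Their 75th percentiles were nearly equal too, from 7.964 to 7.974, so that differences are relative to the other probes. In a lysate of many cells, fewer dividing cells and less RNA per cell cannot be told apart. Of 11 line markers, KRT7, KRT8, KRT18, the ovarian transcription factor PAX8, EPCAM, CDH2 and VIM were above the floor in all 9 arrays. CDH1 and MUC16 lay on the floor in every array. The keratin KRT19 was above it only in complete medium, and WT1 had 1 deprived monoculture array on it.

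Both monocultures were set against each other for the effect of 24 h of glutamine withdrawal. All 10 mitotic kinesins fell, with a median log2 difference of -1.50 and a range from -3.19 for KIF20A to -0.92 for KIFC1. Of all 10862 genes tested 24.3% were called lower (adjusted p under 0.05, limma with Benjamini-Hochberg adjustment), and the median difference over all tested genes was 0.02. The falls were at least 1.5-fold for 10 of 10 members, against 6.31% of all genes. In no member did the groups overlap, and 26.2% of all genes were lower without overlap. In deprived monoculture 7 of the 10 members had at least 1 array on the floor, and 9 of 10 had mean levels between 7.40 and 7.60. KIF22 was the exception, at 8.12. With values raised to the floor edge, the members' median was -1.49 for deprivation and 0.41 for coculture against deprived monoculture.

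Among the motors of spindle assembly, KIF11 (Eg5), which pushes spindle poles apart, had levels of 9.67, 9.87 and 9.70 in complete medium, 7.61, 7.55 and 7.65 in deprived monoculture, and 8.52, 8.47 and 8.42 in coculture. The 3 groups were fully separated, with coculture between the monocultures. KIF11 fell 4.42-fold without glutamine (log2 difference -2.14, SE 0.06, limma adjusted p = 2.11e-16) and was 1.82-fold higher in coculture than in deprived monoculture (0.86, SE 0.06, adjusted p = 3.27e-09). KIF15, which shares the pole-separating task of KIF11 and reaches the spindle through TPX2, stood at 8.40, 8.51 and 8.40 in complete medium, at 7.42, 7.47 and 7.45 in deprived monoculture, and at 7.81, 7.84 and 7.84 in coculture. Its deprived arrays were all on the floor, so that KIF15 was at least 1.94-fold lower without glutamine (adjusted p = 8.86e-13) and at least 1.28-fold higher in coculture (adjusted p = 5.80e-06). KIFC1 (HSET), a motor of the opposite direction that focuses spindle poles and gathers extra centrosomes, had 8.33, 8.27 and 8.45 in complete medium, 7.46, 7.42 and 7.43 in deprived monoculture, and 7.65, 7.52 and 7.67 in coculture. It too was on the floor without glutamine, at least 1.83-fold lower than in complete medium (adjusted p = 1.51e-11).

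In coculture KIFC1 was at least 1.10-fold higher than in deprived monoculture (log2 difference 0.18, SE 0.05, adjusted p = 0.0184), and the groups did not overlap. Leaving out array 2 of the deprived monoculture ended this call (adjusted p = 0.0608), as did leaving out array 1 (0.0702) or array 3 (0.0925) of the coculture. Raising values below the floor edge to that edge, an alternative chosen after seeing the data, ended it too (0.0677).

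Chromosome motors followed the same order of groups. KIF22 (Kid), a chromosome-bound motor that pushes chromosome arms away from the poles, had levels of 9.62, 9.74 and 9.68 in complete medium, 8.10, 8.08 and 8.18 in deprived monoculture, and 8.76, 8.97 and 8.82 in coculture. It was the only member with no deprived array below 8, and its measured fall of 2.95-fold (log2 difference -1.56, SE 0.07, adjusted p = 6.50e-14) did not reach the floor. Coculture exceeded deprived monoculture 1.66-fold (0.73, SE 0.07, adjusted p = 5.94e-08). KIF4A, a chromosome motor that also sets the length of the central spindle with PRC1, stood at 8.54, 8.66 and 8.67, at 7.39, 7.38 and 7.44, and at 7.71, 7.73 and 7.66 in complete medium, deprived monoculture and coculture. KIF4A was at least 2.21-fold lower without glutamine (adjusted p = 5.53e-14) and at least 1.17-fold higher in coculture (adjusted p = 0.000192). Its near-identical copy KIF4B cannot be told apart here, since no probe sequences were used. KIF18A, which damps the movements of chromosomes at the spindle equator, had 8.40, 8.58 and 8.53 in complete medium, 7.36, 7.48 and 7.49 in deprived monoculture, and 7.86, 7.78 and 7.65 in coculture. KIF18A fell (adjusted p = 1.19e-11) and was higher in coculture (adjusted p = 0.000535), but 1 deprived array lay on the floor and the deprived mean of 7.44 was below its edge, so that both sizes are bounds. With values raised to the edge the log2 differences were -1.02 and 0.28. KIF2C (MCAK), which takes microtubules apart to correct faulty kinetochore attachments, stood at 10.09, 9.99 and 10.04 in complete medium, 7.48, 7.50 and 7.53 in deprived monoculture, and 8.26, 8.31 and 8.22 in coculture. Its fall of 5.80-fold (log2 difference -2.54, SE 0.06, adjusted p = 3.09e-18) ended just above the floor, and coculture was 1.69-fold higher (0.76, SE 0.06, adjusted p = 4.74e-09).

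The motors of cytokinesis showed the same order of groups. KIF20A (MKLP2), which carries the chromosomal passenger complex with Aurora B to the central spindle, had levels of 10.71, 10.74 and 10.62 in complete medium, 7.46, 7.53 and 7.51 in deprived monoculture, and 8.09, 8.09 and 8.11 in coculture. KIF20A, with 1 deprived array on the floor, fell 9.10-fold (log2 difference -3.19, SE 0.06, adjusted p = 1.43e-19) and was 1.51-fold higher in coculture (0.60, SE 0.06, adjusted p = 1.53e-07). KIF23 (MKLP1), which forms centralspindlin with RACGAP1, stood at 9.05, 9.11 and 9.08 in complete medium, 7.42, 7.49 and 7.47 in deprived monoculture, and 7.93, 7.91 and 7.95 in coculture. KIF23 fell (adjusted p = 7.05e-16) and was higher in coculture (adjusted p = 9.86e-07), but 2 of 3 deprived arrays lay on the floor and their mean of 7.46 was below its edge, so that both sizes are bounds. With values raised to the edge the log2 differences of KIF23 were -1.60 and 0.45. KIF14, which holds citron kinase at the midbody, had 8.963, 9.004 and 8.831 in complete medium, 7.44, 7.51 and 7.52 in deprived monoculture, and 7.996, 7.816 and 7.812 in coculture. With 1 deprived array on the floor, it fell 2.71-fold (log2 difference -1.44, SE 0.06, adjusted p = 9.40e-14) and was 1.30-fold higher in coculture (0.38, SE 0.06, adjusted p = 0.000102).

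**Figure D2:**
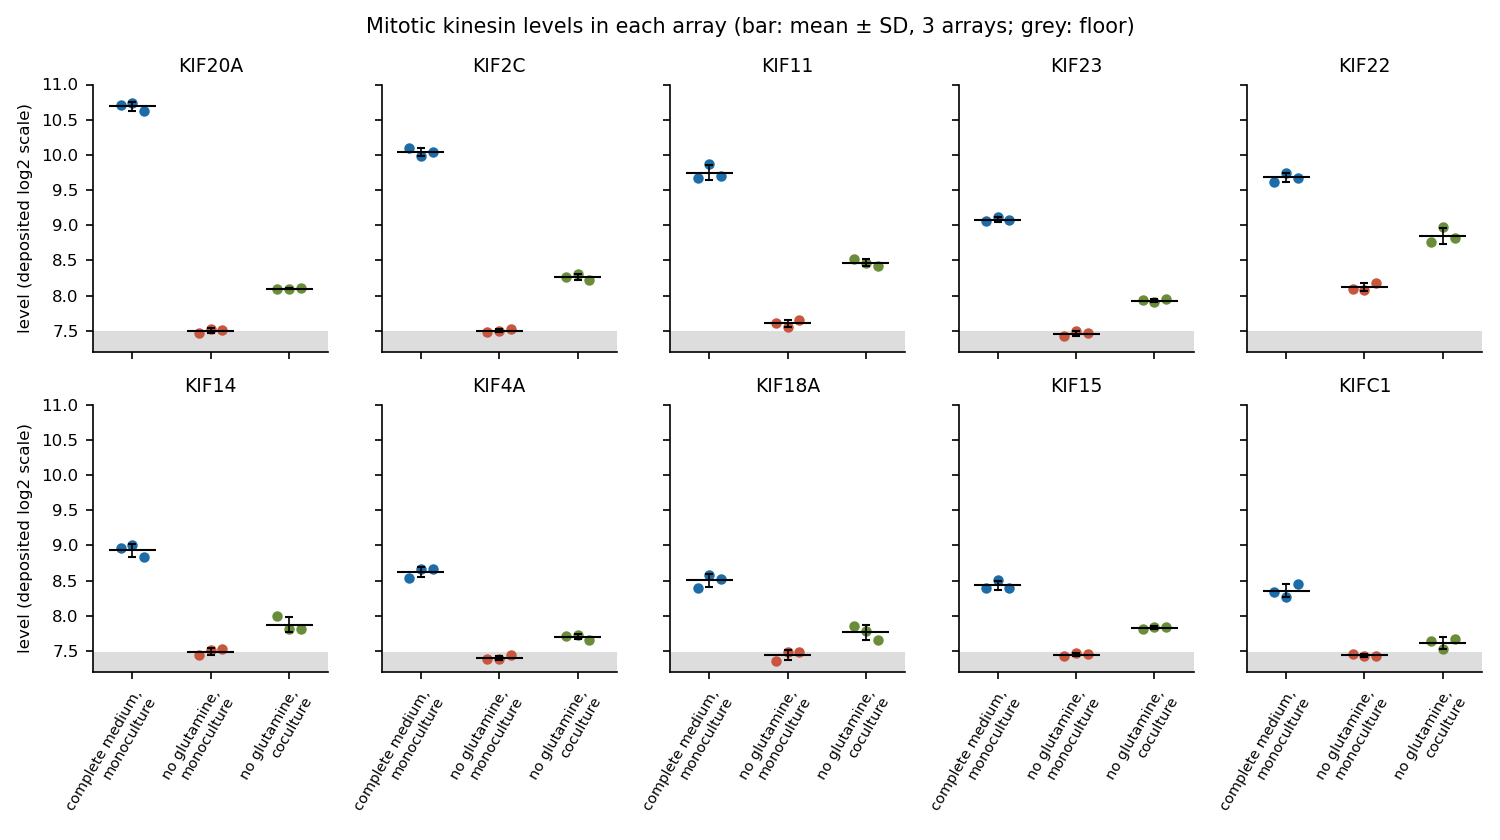
Level of each kinesin gene (y axis, deposited log2 scale) in every array of the 3 groups (x axis), in order of the measured fall without glutamine; dots are arrays, horizontal lines with bars are mean ± SD of 3 arrays, and the grey band is the floor up to 7.48. In each panel the complete-medium dots lie above the coculture dots, which lie above the deprived monoculture dots, and KIF22 has its deprived dots clear of the band.

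For the effect of fibroblasts on deprived cells, coculture and monoculture without glutamine were compared. All 10 members rose, against 12.7% of all genes called higher, with a median log2 difference of 0.43 and a range from 0.18 for KIFC1 to 0.86 for KIF11. In no member did the groups overlap (18.6% of all genes were higher without overlap), and 4 members, KIF11, KIF2C, KIF22 and KIF20A, were at least 1.5-fold higher, against 1.76% of all genes. The median over all genes was -0.01. Of 13 fibroblast markers measured, COL3A1, LUM, PDGFRA, PDGFRB, THY1 and POSTN lay on the floor in all 3 coculture arrays. FAP, ACTA2 and PDPN were above it there and in complete-medium monoculture, and they moved in different directions. The remaining markers, COL1A1, COL1A2, COL6A3 and DCN, had 1 or 2 coculture arrays on the floor. COL6A3 averaged 7.52 in coculture and 7.44 in deprived monoculture, without overlap (limma adjusted p = 0.108). COL1A1 averaged 7.56 and 7.48 (adjusted p = 0.344), and COL1A2 and DCN were too dim to be tested. PDPN averaged 11.12 in complete medium, against 9.98 in deprived monoculture and 10.81 in coculture, and so followed the members' order of groups, 1.78-fold higher in coculture than in deprived monoculture (limma adjusted p = 3.10e-08). FAP, on the floor in all deprived arrays, was higher in coculture as well (adjusted p = 0.00185). ACTA2 ran the other way, at 10.19, 11.73 and 11.13, and was 1.52-fold lower in coculture (adjusted p = 5.04e-07). The summed level of the 13 markers was 103.57 to 104.03 in coculture, 103.11 to 103.44 in deprived monoculture and 103.43 to 103.47 in complete medium, and its part in the result was not tested. The summed level of the 11 line markers followed the members' order of groups. It was 102.76 to 103.82 in complete medium, 98.79 to 99.66 in deprived monoculture and 100.87 to 101.43 in coculture. Single markers differed. Of 9 tested, 7 were called lower without glutamine, where 24.3% of all genes were. Only 3, KRT7, KRT8 and PAX8, were called higher in coculture than in deprived monoculture, against 12.7% of all genes. KRT18 and KRT19 fell but were not called higher in coculture, and CDH2 and VIM were called in neither comparison. The part of these markers in the result was not tested either. Of 3 leukocyte markers measured, none was above the floor in all arrays of a group. Of 3 endothelial markers, CDH5 followed the members' order of groups, with means of 9.76, 7.55 and 7.91 in complete medium, deprived monoculture and coculture (adjusted p = 1.76e-16 for deprivation and 0.000289 for coculture), while VWF and PECAM1 were not above the floor in all arrays of any group. Its part in the result was not tested.

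Coculture without glutamine was also set against monoculture in complete medium, a comparison in which medium and fibroblasts differ together and cannot be told apart. All 10 members were lower in coculture, against 20.7% of all genes called lower, with a median log2 difference of -0.99 against 0.01 over all genes. No member's groups overlapped, against 24.8% of all genes that were lower without overlap, and 10 of 10 were at least 1.5-fold lower, against 3.54% of all genes. The differences ran from -2.59 for KIF20A (6.02-fold lower, SE 0.06, limma adjusted p = 3.08e-17) to -0.60 for KIF15 (1.52-fold lower, SE 0.05, adjusted p = 4.73e-09). They were -1.78 for KIF2C, -1.28 for KIF11, -1.15 for KIF23, -1.06 for KIF14, -0.92 for KIF4A, -0.83 for KIF22, and -0.74 for both KIF18A and KIFC1. The 3 comparisons share arrays, so these values stand side by side and are not independent.

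The members differed among themselves in the size of the measured fall. The measured log2 differences were -3.19 for KIF20A, -2.54 for KIF2C and -2.14 for KIF11. With the deprived levels of 9 members at or near the floor, the size of a measured fall is capped by how far above the floor the probe stood in complete medium, so the members are not ranked by it. In coculture against deprived monoculture all neighbouring 95% intervals overlapped. Those further apart in size did not always overlap. KIF22 had 0.59 to 0.87 and KIFC1, with its deprived arrays on the floor, had 0.06 to 0.29. On the log2 scale the mean coculture level lay between 18.7% of the way from deprived monoculture to complete medium (KIF20A) and 46.9% of the way (KIF22), with a median of 29.4% over the members. These percentages describe levels. The floor bears on those of members with deprived arrays on it, and may bear on those of KIF11 and KIF2C, just above it. It does not bear on that of KIF22.

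**Figure D3:**
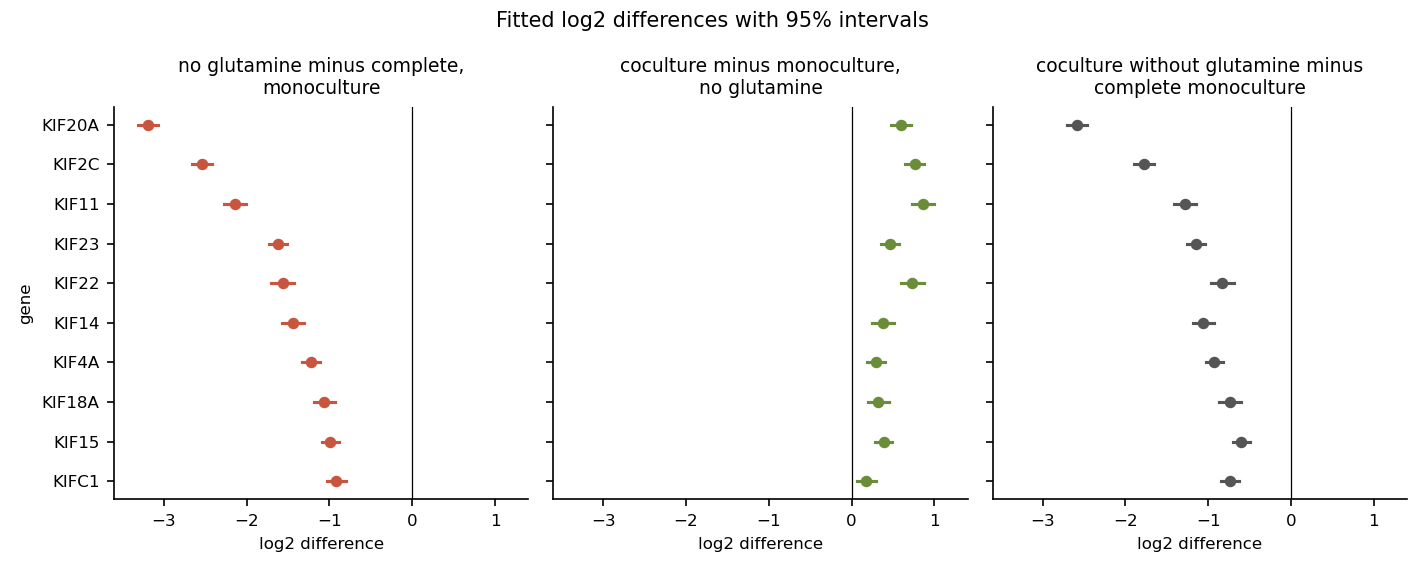
Fitted log2 differences (x axis) of the 10 kinesin genes (y axis) in the 3 comparisons; points are estimates and lines 95% intervals. All intervals lie below 0 for deprivation, above 0 for coculture against deprived monoculture, and below 0 for coculture against complete medium. The point estimates for deprivation run from -3.19 for KIF20A to -0.92 for KIFC1.

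KIF11, KIF23 and KIF18A had 2 probes each. The dimmer KIF11 probe followed the brighter, with 9.12 ± 0.03 (SD, n = 3) in complete medium, against 7.50 ± 0.03 in deprived monoculture and 8.03 ± 0.05 in coculture. The dimmer KIF23 probe, which the annotation ties to another transcript, had 7.72 ± 0.04, 7.39 ± 0.06 and 7.43 ± 0.01. With it KIF23 was at least 1.19-fold lower without glutamine (limma adjusted p = 4.46e-07), but coculture differed from deprived monoculture by only 0.04 (adjusted p = 0.582), with all arrays of both groups on the floor. The dimmer KIF18A probe was too dim to be tested, at 7.47 ± 0.05, 7.37 ± 0.04 and 7.39 ± 0.04.

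**Figure D4:**
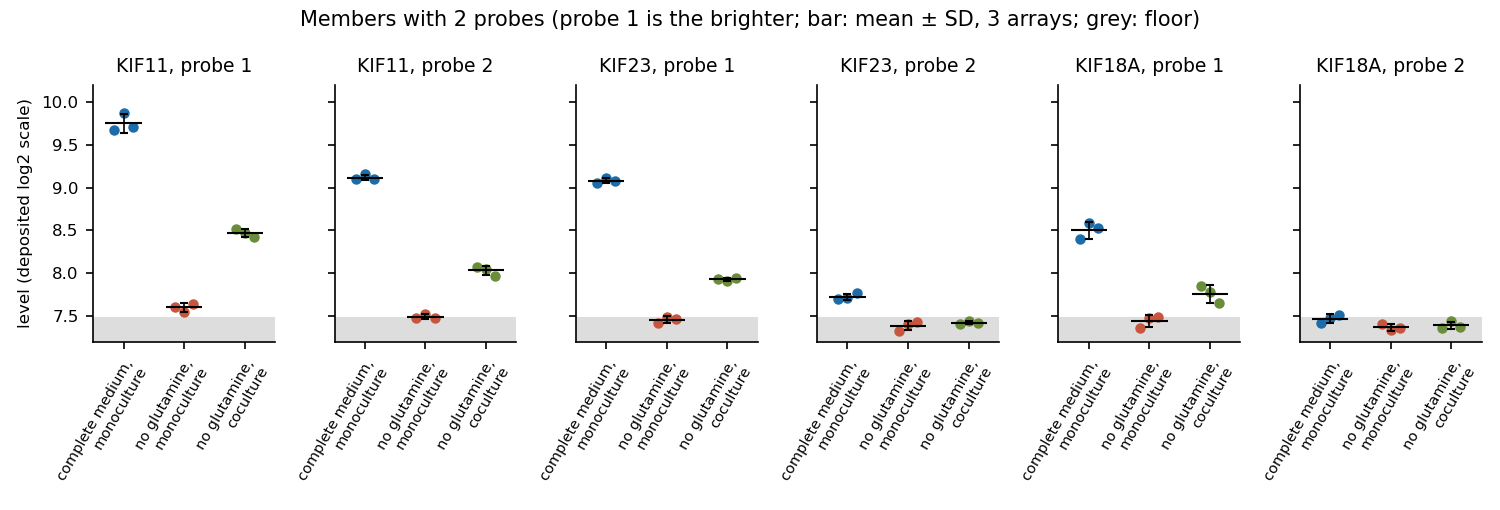
Levels (y axis, deposited log2 scale) of both probes of KIF11, KIF23 and KIF18A in every array of the 3 groups (x axis), with mean ± SD of 3 arrays and the floor in grey. The KIF11 probes show the same order of groups, whereas the dimmer probes of KIF23 and KIF18A have deprived and coculture arrays on the floor.

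Other genes of the motor family were counted for comparison. CENPE, the kinetochore motor that brings chromosomes to the equator, had 9.32, 9.36 and 9.24 in complete medium, 7.52, 7.56 and 7.61 in deprived monoculture, and 7.88, 7.86 and 7.94 in coculture. It fell 3.35-fold (limma adjusted p = 7.75e-16) and was 1.26-fold higher in coculture (adjusted p = 0.000160). KIF18B and KIF20B were not analysed here. Of 31 other kinesin and light chain genes with a probe, most of them carriers of vesicles and organelles, 19 were tested. Without glutamine 6 fell and 5 rose, where 24.3% and 30% of all genes did, and 8 were not called, with a median log2 difference of -0.04 and a range from -0.36 to 0.51. Several stood near the floor already in complete medium, such as KIF21B (mean 7.46), KIF26A (7.50), KIF16B (7.52) and KIF5C (7.53), with little room to fall. Others, such as KIF21A (9.14) and KLC1 (9.07), stood well above it. Members ranged there from 8.35 to 10.69, so the lists also differ in brightness. The 3 largest falls were those of KIF3C (at least 1.26-fold lower, with deprived arrays on the floor, adjusted p = 7.61e-07), KIF21A (-0.32, adjusted p = 0.00113) and KIF2A (-0.31, adjusted p = 0.000565), the last a microtubule-shortening relative of KIF2C. The 3 largest rises were those of KIF3B, a motor of transport in cilia (0.51, adjusted p = 1.87e-06), KIF1B, a carrier of organelles (0.34, adjusted p = 0.00138), and KIFC2 (0.33, adjusted p = 0.000296). In coculture against deprived monoculture 1 of the 19 rose and 4 fell, where 12.7% and 15.1% of all genes did, with a median of -0.02. Dynein and dynactin, the motor complex that walks toward the opposite end of the microtubule, had 15 tested genes, of which 9 rose and 3 fell without glutamine (median 0.28), while in coculture 1 rose and 6 fell (median -0.13). DCTN3, a dynactin subunit singled out after its values were seen, fell by 0.87 and rose by 0.54 in these comparisons.

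Partners and regulators of the mitotic kinesins were followed as a list of 34 genes, of which 32 were tested. Without glutamine 28 fell and 1 rose, where 24.3% and 30% of all genes did, with a median log2 difference of -1.60. In coculture against deprived monoculture 20 rose and 1 fell, where 12.7% and 15.1% of all genes did, with a median of 0.52. RACGAP1, the partner of KIF23, fell 6.32-fold (adjusted p = 4.11e-18) and rose 1.89-fold in coculture (adjusted p = 8.62e-10). PRC1, the partner of KIF4A, fell 8.57-fold (adjusted p = 3.88e-18) and rose 2.59-fold (adjusted p = 2.30e-11). TPX2, which binds KIF11 and KIF15, fell 5.68-fold (adjusted p = 1.27e-17) and rose 1.59-fold (adjusted p = 1.02e-07). AURKB, the kinase carried by KIF20A, fell 6.30-fold and rose 2.14-fold, and TACC3, a spindle microtubule protein, fell 3.65-fold and rose 1.52-fold. CIT, the citron kinase partner of KIF14, lay on the floor in deprived monoculture, at least 1.46-fold lower than in complete medium (adjusted p = 5.73e-11), with a log2 difference of 0.09 for coculture against deprived monoculture (adjusted p = 0.104). NEK7, a kinase upstream of KIF11, stood at 7.87 ± 0.08 (SD, n = 3), 7.81 ± 0.10 and 7.86 ± 0.06 for complete medium, deprived monoculture and coculture, with limma adjusted p = 0.372 for deprivation and 0.614 for coculture. The gene that rose without glutamine and fell in coculture was KPNB1, the importin-beta transport receptor (log2 differences 0.21 and -0.45).

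**Figure D5:**
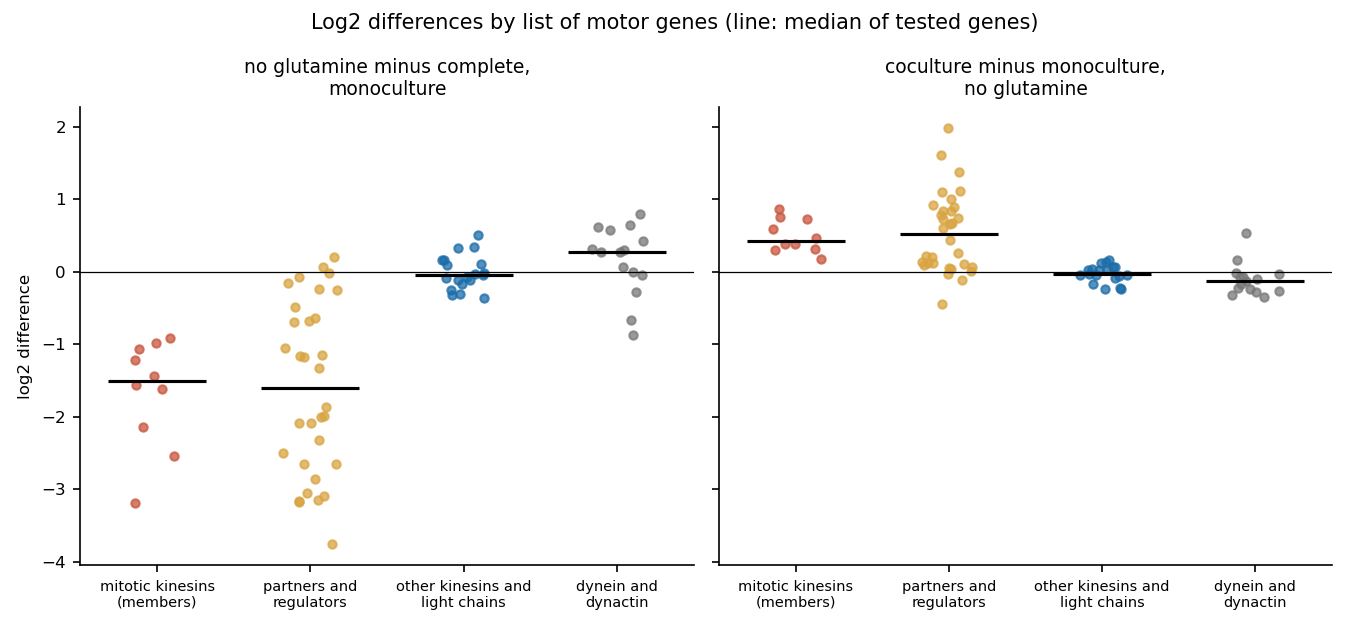
Log2 differences (y axis) of tested genes in 4 lists (x axis) for deprivation (left) and for coculture against deprived monoculture (right); dots are genes and lines medians. The medians for deprivation are -1.50 for mitotic kinesins, -1.60 for their partners, -0.04 for other kinesins and 0.28 for dynein and dynactin. Several of the other kinesins stood near the floor in complete medium, with little room to fall.

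The genes most like the members over the 9 arrays, by Pearson's r to the mean of the members' standardised profiles, were FAM83D (r = 0.999), CDCA8 (0.999), AURKA (0.999), RACGAP1 (0.999) and DLGAP5 (0.998). These arrays fall into 3 groups that carry most of the correlation, so r is a description only. FAM83D averaged 10.36 in complete medium, against 7.56 in deprived monoculture and 8.35 in coculture. AURKA averaged 11.50, 8.34 and 9.24. FAM83D, CDCA8, AURKA, RACGAP1 and DLGAP5 all kept levels above the floor in every array.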

How the data were processed

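RNA of 9 HeyA8 cultures was hybridised to Illumina bead arrays. The deposited values are on a log2 scale, 1 per probe and array, for 34476 probes, and were made by the authors with lumi, per the submitters' processing notes. For lumi's version, background correction and exact transformation, nothing was given in the sources used here. Probes were named from the platform annotation. Of them 26366 had 1 symbol, 3 had several and 8107 had none, and 26333 were matched to RefSeq by gene identifier. The probe with the highest mean stood for its gene, and 10862 genes whose mean exceeded the median of all probe means, 7.46, were tested. The floor edge is the 1st percentile of all values mirrored about their mode, found in steps of 0.01. Detection p-values and background intensities were not used. Precision is limited by the number of arrays.

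Differences came from limma 3.58.1 under R 4.3.3, as lmFit followed by eBayes with a trend, on all 9 arrays with 1 mean per group, two-sided, adjusted by Benjamini-Hochberg over all genes. The median SD within groups was 0.0669. The fit was tested on simulated data. Tables and plots used Python 3.11.15, pandas 2.3.3, numpy 2.4.6 and matplotlib 3.10.9. Within groups, r between arrays was 0.996 to 0.998, and no slide or scan information was used. Members and lists were chosen with earlier results of these data known, so lists are described by counts and medians without a test. The rule for named genes took all members, CENPE, 7 partners, the 3 largest called falls and rises of other kinesins, and the 5 genes most like the members. Alternatives were the fit without trend, only 2 groups, the replicate number as a block, other filters, other probes, other scalings, a fold of 1.5, leaving out each array and, added after seeing the data, raising values to the floor edge.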

Additional observations from a re-analysis of the deposited data

How the results depend on the processing

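Of 555 recomputed member differences, 550 kept their direction and their side of the threshold, 5 kept the direction but lost the call, and 0 reversed. Many of them could not reverse. The fit without trend, only 2 groups, the block, the other filters and leaving out an array of the group not compared leave a difference unchanged. Other probes also leave it unchanged for members with 1 probe. The 5 lost calls are those of KIFC1 and of the dimmer KIF23 probe in coculture against deprived monoculture, given in the report. Leaving out each array in turn gave 9 to 10 members higher in coculture than in deprived monoculture, and 10 lower in both other comparisons each time. With the filter raised to the 75th percentile of probe means only 6 members were tested, and 6 were called in each comparison, with medians of -1.88 for deprivation, 0.66 for coculture against deprived monoculture and -1.22 for coculture against complete medium. The median was -1.33 for deprivation and -0.88 for coculture against complete medium with the mean of all probes, and -1.44 and -0.92 with the second-brightest probe, for which 9 members were tested. At a fold of at least 1.5, 4 members were called higher in coculture than in deprived monoculture, and the counts over all genes were 1399 for deprivation, 281 for coculture against deprived monoculture and 696 for coculture against complete medium.

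Deviations of same-numbered arrays correlated between -0.2593 and 0.213 over the 3 comparisons, and those of different-numbered arrays between -0.2388 and 0.3456. A pairing by replicate number was thus not shown, nor was it excluded. With the number as a replicate block, 10 of 10 members were called in each comparison, and 5802, 2901 and 4563 genes in all against 5898, 3022 and 4670 without it. Signal over background limits the deprived values of the 7 members with at least 1 array on the floor. KIF11 and KIF2C lay just above the floor, where it may limit them too, and KIF22 stood clear of it.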
